A study of Mus musculus with 4 samples.

Results

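The effect of decitabine on DNA methylation signal was examined in wild type (WT) mouse leukaemic cells, by setting 1 array of treated cells against 1 array of untreated cells. Both carry the cell line label MII5 and the genotype label wild type. They belong to a series of 4 arrays that also holds a pair of knockout (KO) arrays, whose source names give an Mll5 knockout and whose genotype label gives a HOXA9 knockout. Decitabine was given at 20 nM each 24 h over 3 days to the treated cells and not to the untreated ones. Both were harvested at 72 h and had been cultured in serum with interleukin-6, interleukin-3 and stem cell factor. Methylated DNA was pulled down with an antibody (MeDIP), amplified over the whole genome, labelled with Cy3 and hybridised beside amplified, Cy5-labelled input DNA of the same cells to a 2-colour mouse promoter and CpG island array. Probes were used if their input signal clearly exceeded background and carried no non-uniformity flag on either WT array, which left 403207 of 520554 probes. A gene was measured where at least 3 such probes carried its name, which gave 17177 genes with a median of 22 probes. With 1 array a side there is no replicate, so no difference was tested: an error given as SD is the spread over the probes of a gene, which share 2 hybridisations, and "higher" and "lower" calls rest on a fold of at least 2 (1 on the log2 scale). The slide, the labelling and the treatment cannot be told apart.

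Decitabine is a cytidine analogue that is built into replicating DNA, where it traps the maintenance methyltransferase Dnmt1 and leads to loss of methylation over cell divisions. In myeloid leukaemia it is used at low, repeated doses. MeDIP signal at a probe grows with the number of methylated CpG sites on the fragments around it and with how well those fragments amplify and hybridise. After each array is centred on its own median, a shift shared by all probes is removed, so the values below are relative to the rest of the same array and do not show how much methylation the cells held in total.

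More probes stood out in MeDIP after decitabine, and few genes moved as a whole. A probe is called bright here where the scanner marked its MeDIP signal as well above background. Among the kept probes, 35543 (8.82%) were bright with decitabine and not without it, and 1464 (0.363%) were bright without decitabine and not with it. At the gene level 84 of 17177 genes rose at least 2-fold (0.489%) and 5 fell (0.0291%). Among the longest stretches of neighbouring probes that were bright with decitabine only were those in Dhx38, a helicase gene of pre-mRNA splicing, H2-DMa, which encodes a chain of the peptide-loading molecule of MHC class II, Zfp366, a zinc finger gene, and Zbtb4, whose protein binds methylated CpG. Sequence from the middle of these 4 stretches, read from the mm9 genome on the plus strand with each CpG in capitals, shows the density of the sites whose methylation MeDIP can register.
Dhx38, chr8:112085675-112085974: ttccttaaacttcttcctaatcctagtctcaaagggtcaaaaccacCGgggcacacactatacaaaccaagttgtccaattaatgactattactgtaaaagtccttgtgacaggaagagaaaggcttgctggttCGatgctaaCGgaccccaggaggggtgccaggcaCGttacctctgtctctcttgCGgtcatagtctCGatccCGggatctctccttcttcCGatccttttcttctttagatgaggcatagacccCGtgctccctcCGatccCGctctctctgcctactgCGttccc
H2-DMa, chr17:34274516-34274815: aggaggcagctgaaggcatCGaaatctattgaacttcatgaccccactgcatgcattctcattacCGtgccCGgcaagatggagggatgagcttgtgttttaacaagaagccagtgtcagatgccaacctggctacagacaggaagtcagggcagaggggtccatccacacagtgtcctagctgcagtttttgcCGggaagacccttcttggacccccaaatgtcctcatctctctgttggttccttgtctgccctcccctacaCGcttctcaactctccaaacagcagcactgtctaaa
Zfp366, chr13:99955753-99956052: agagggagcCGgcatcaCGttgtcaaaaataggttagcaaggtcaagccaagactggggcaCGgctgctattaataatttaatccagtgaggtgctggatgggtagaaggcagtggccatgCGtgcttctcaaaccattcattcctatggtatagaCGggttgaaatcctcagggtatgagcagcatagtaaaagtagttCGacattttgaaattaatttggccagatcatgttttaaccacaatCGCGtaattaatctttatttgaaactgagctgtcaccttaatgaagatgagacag
Zbtb4, chr11:69580465-69580764: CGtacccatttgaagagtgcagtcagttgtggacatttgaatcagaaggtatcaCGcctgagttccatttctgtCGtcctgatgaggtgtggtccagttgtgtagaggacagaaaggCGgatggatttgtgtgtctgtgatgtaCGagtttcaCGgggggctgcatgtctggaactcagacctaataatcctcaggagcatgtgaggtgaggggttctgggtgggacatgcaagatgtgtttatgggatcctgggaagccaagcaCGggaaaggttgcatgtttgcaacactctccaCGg
These 300 bp windows hold 12 CpG in Dhx38, 5 in H2-DMa, 8 in Zfp366 and 8 in Zbtb4, and their GC content runs from 42.7% in Zfp366 to 52.0% in H2-DMa. They contain no annotated UTR base. The array reads such windows through short probes, and 2 probes, each the one with the largest difference in its gene among those bright with decitabine only, are shown for scale, again with each CpG in capitals.
Zbtb4 intron probe, chr11:69580742-69580788: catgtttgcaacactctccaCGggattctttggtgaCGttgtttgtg
Ly6g6c intron probe, chr17:35205734-35205778: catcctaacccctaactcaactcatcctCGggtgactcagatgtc
The log2 MeDIP-over-input ratio of the Zbtb4 probe was -1.59 untreated and 2.17 with decitabine. That of the Ly6g6c probe was -1.38 untreated and 1.90 with decitabine. Both were bright on the decitabine array only.

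Across the measured genes the difference between the decitabine and the untreated log2 ratio had a median of 0.09, and the middle of the distribution was narrow, from -0.09 at the lower to 0.26 at the upper quartile. Between the 5th and the 95th percentile it ran from -0.36 to 0.55. It was above 0 in 10929 genes (63.6%). The probes of a gene varied more than the genes did, with a median SD of 0.86 over the probes of a gene. Of 34136 probes with 2 kept spots, the SD between the spots of a probe was 0.52 in the difference, against an SD of 0.85 over these probes. Among the 772 of them that were bright in every spot it was 0.26. The median gene is the reference for the gene lists below, because the sign of a small difference turns with the centring. With bright probes as the centre of each array, the median gene was at -0.24, with 15 genes higher and 73 lower in place of 84 and 5. By loess it was at -0.06, with 14 higher and 20 lower.

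**Figure D1:**
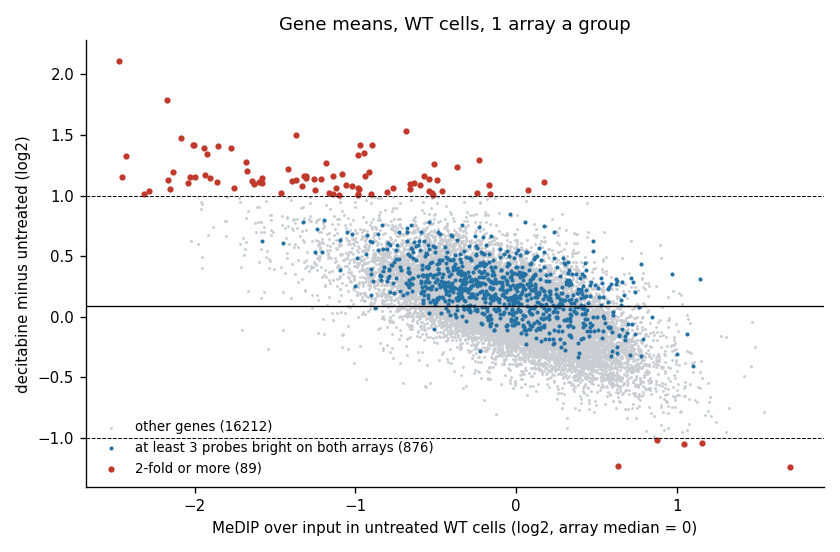
Each point is 1 of 17177 genes; the x axis is its mean log2 MeDIP-over-input ratio on the untreated array and the y axis the difference decitabine minus untreated (log2), with a line at the median gene (0.09) and dashed lines at 2-fold. The 84 genes above the upper dashed line lie mostly at low untreated ratios, and the 876 genes that have 3 or more probes bright without and with decitabine all lie between the dashed lines.

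The difference tracked signal strength across genes. Its correlation with the untreated ratio was -0.65 over the 17177 genes, a description in which the untreated array enters both measures with opposite sign. Its correlation with the mean log2 input signal of the untreated array was 0.67, where that array is again shared. The 84 genes that rose had a median untreated log2 ratio of -1.20, against -0.07 over all genes, and a median of 6 probes, and 39 of them had 3 to 5. Requiring at least 80% of the probes of a gene to move the same way left 52 genes higher (0.303%) and 5 lower (0.0291%). Of the 84, 23 had a probe bright on both arrays, 56 had bright probes with decitabine only and 5 had no bright probe. The part of input signal in these calls was not tested.

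The genes that rose and had at least 5 probes bright with decitabine were singled out after their values were seen. Ly6g6c, a gene of the Ly6 family of GPI-anchored surface proteins in the MHC class III region, went from a log2 ratio of -0.68 to 0.85, a difference of 1.54 ± 1.07 (SD over 16 probes), and from 1 to 9 bright probes. Tmem181, a transmembrane protein gene, went from -0.97 to 0.45, a difference of 1.42 ± 1.28 over 14 probes, and from 1 to 8 bright probes. Its near neighbour Dynlt1, a dynein light chain gene, went from -1.37 to 0.13 over 7 probes and from 1 to 4 bright. Ccl22, a chemokine gene, was higher by 1.17 and went from 1 to 7 bright of 18 probes. Zfp827, a zinc finger gene, was also higher by 1.17 and went from 2 to 5 of 11. Zbtb4 was higher by 1.16 ± 1.34 over 13 probes and went from 1 to 6 bright. Ankrd23, Cldn15, Prr3, Ak3, Cox4i2 and Cul7 lay between 1.01 and 1.05. Of these, the mitochondrial adenylate kinase gene Ak3 went from 2 to 12 bright probes of 26, and the cytochrome c oxidase subunit gene Cox4i2 from 1 to 9 of 20.

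Where no probe of a gene was bright on the untreated array, the fold is given as a bound over its probes bright with decitabine, taking for each dim untreated probe the higher of its own signal and the lowest bright MeDIP signal of that array. The scanner sets brightness spot by spot, so some dim probes lay above that lowest signal and entered at their own value. Each bound is a fold of the centred ratio, so input signal and centring enter it. It covers only those probes, which were picked for being bright with decitabine, and is no bound for the gene as a whole. Efr3b went from 0 to 6 bright probes and its measured means from -2.01 to -0.60, with a bound of at least 1.54-fold over those 6. Agpat1, an acyltransferase gene of phosphatidic acid synthesis, went from 0 to 10 of 24 probes, with a bound of at least 1.77-fold over those 10. Apom, which encodes an apolipoprotein, went from 0 to 5 of 18, at least 1.78-fold higher. Sco2, a copper chaperone gene of cytochrome c oxidase, was at least 1.46-fold higher, Rfng, a Fringe glycosyltransferase gene of Notch signalling, at least 1.42-fold, and Acrbp, a sperm acrosome gene, at least 1.44-fold. The clone-named gene 5830427D03Rik went from 0 to 5 of 13 probes, at least 1.89-fold higher, and its difference had a small spread over probes, 1.06 ± 0.51. The measured differences of these 7 genes reached 2-fold while the bounds did not. Of the genes past 2-fold named elsewhere, Ezh1, Hoxd8, Ly6a, Zfp800, Psors1c2, H2-T23 and Cyp2a5 also had no bright probe untreated, and Cyp2b13 had none on either array, so that their differences rest on untreated signals not well above background.

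Of the 84 genes that rose, 11 lay on chromosome 17 and 11 on chromosome 7. On chromosome 7, 11 of 1470 measured genes rose (0.748%), and on chromosome 17, 11 of 827 (1.33%). Between the first and the last H2 gene of that chromosome (chr17:34075426-37622263), 6 of 161 genes rose (3.73%), against 0.489% of all genes: Agpat1, Ly6g6c, Apom, Psors1c2, Prr3 and the class I gene H2-T23. Psors1c2 was higher by 1.33 over 12 probes and H2-T23 by 1.10 over 3. This interval was chosen after the genes had been seen. Its median gene was at 0.23, against 0.09 over all genes.

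The 5 genes that fell were the olfactory receptor genes Olfr1062 (-1.24), Olfr320 (-1.23) and Olfr441 (-1.04), the defensin gene Defb35 (-1.05) and EG545391 (-1.02). They had 3 to 6 probes each. None of their probes was bright on the untreated array, and only EG545391 had a bright probe with decitabine, so all these values compare signals that were not well above background. Their untreated ratios, from 0.63 to 1.71, were above the array median.

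Genes with several probes bright without and with decitabine had no mean past 2-fold but a higher median. In the 876 genes that had 3 or more such probes, 0 rose (0%) and 0 fell (0%) by 2-fold. Their median difference was 0.23, against 0.09 over all genes, and 739 of them were above 0. Over the bright probes alone, the same genes had a median of 0.55, 790 of 876 were above 0, 160 rose 2-fold or more and none of the 876 fell by 2-fold. The 12603 probes bright on both arrays had a median of 0.50, with 72.3% above 0, so 0.55 lay near the level of such probes. The 15 highest gene means among the 876 genes ran from 0.70 to 0.85. Slc2a3, a glucose transporter gene, was the highest, from -0.04 to 0.81 over 28 probes, with 3 bright probes untreated and 10 with decitabine. Shisa5, a p53-induced gene, was at 0.78, with 3 and 15 bright of 49. Mgat3, an N-glycan branching transferase gene, was at 0.76 and went from 3 to 12 bright. Nfix, a nuclear factor I transcription factor gene, was at 0.70 and went from 8 to 19 bright of 45.

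The rest of the 15 showed the same pattern at similar size. Pcdhgc5 of the gamma protocadherin cluster and the dehydrogenase gene Dhrsx were both at 0.78. Cnot6, a deadenylase subunit gene, and Fcgrt, which encodes the neonatal Fc receptor, were both at 0.76. Tex11, a meiosis gene on the X chromosome, was at 0.75, Nav1, a neuron navigator gene, at 0.74 and Fcna, a ficolin gene, at 0.73. The ribosomal protein gene Rpl10a was at 0.72. The uroplakin gene Upk3a, Cnnm3 and the sulphate transporter gene Slc26a11 were at 0.70. In Shisa5 and Pcdhgc5 the probes bright on both arrays went the other way, at -0.19 and -0.24, and the gene mean came from their other probes. In Mgat3 and Rpl10a those probes were higher than the gene mean, at 1.72 and 1.46.

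The 10 lowest means in this set lay between -0.41 and -0.27. Srpk2, an SR protein kinase gene, was the lowest, from 1.10 to 0.69 over 24 probes. The squalene synthase gene Fdft1 and the B cell kinase gene Btk were at -0.33, the nuclear receptor coactivator gene Ncoa1 at -0.31, and Olfr916, the lysyl hydroxylase gene Plod2 and the class II gene H2-Ea at -0.30. Ghrhr, Bhlhb3 and A2bp1 closed the list at -0.28, -0.28 and -0.27. Their number of bright probes changed by at most 2. Over the probes bright on both arrays Srpk2 stayed below 0 (-0.36) and so did Btk (-0.24), while Fdft1 (0.44), Ghrhr (0.62), Plod2 (0.28), A2bp1 (0.24), H2-Ea (0.17) and Ncoa1 (0.14) were above 0. Of these values only that of Ghrhr exceeded the median of all probes bright on both arrays, 0.50.

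Counting bright probes gave a nearly one-sided picture. Of the 17177 genes, 12824 had more bright probes with decitabine, 250 had fewer and 4103 had the same number. At least 3 bright probes were gained by 5096 genes (29.7%) and lost by 0 (0%). The scanner set the mark at different signals on the 2 arrays: the lowest bright processed MeDIP signal was 1400 untreated and 1035 with decitabine. With 1400 as the threshold on both arrays, 4.66% of kept probes passed untreated and 7.84% with decitabine, 1459 genes gained at least 3 and 38 lost at least 3. With one threshold on the net signal before dye normalisation (596 units, the 99th percentile of the untreated array), 1.30% passed untreated and 5.37% with decitabine, 1619 genes gained at least 3 and 0 lost as many. The direction was the same under each of these rules, and the size of the gain was not. Under the scanner's looser significance flag 11148 genes gained and 180 lost at least 3.

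Large genes with many probes headed the count. Plec1, the gene of the cytoskeletal linker plectin, went from 17 to 43 bright of 189 probes. Rtl1, an imprinted retrotransposon-derived gene that is kept methylated on one parental copy, went from 8 to 26 of 80. Jph4, a junctophilin gene of excitable cells, went from 2 to 19 of 71, and Espn, an actin bundling gene, from 5 to 21 of 106. Gnas, a complex imprinted locus that encodes a G protein subunit, went from 3 to 18 of 99. Apc2, a relative of the Wnt pathway suppressor Apc, went from 2 to 16 of 60. Mbp, the myelin basic protein gene, went from 1 to 15 of 68, and the corepressor gene Ctbp2 from 4 to 18 of 100. The mean differences of these 8 genes were small, from 0.14 in Gnas to 0.38 in Apc2, and most of their probes stayed dim on both arrays.

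**Figure D2:**
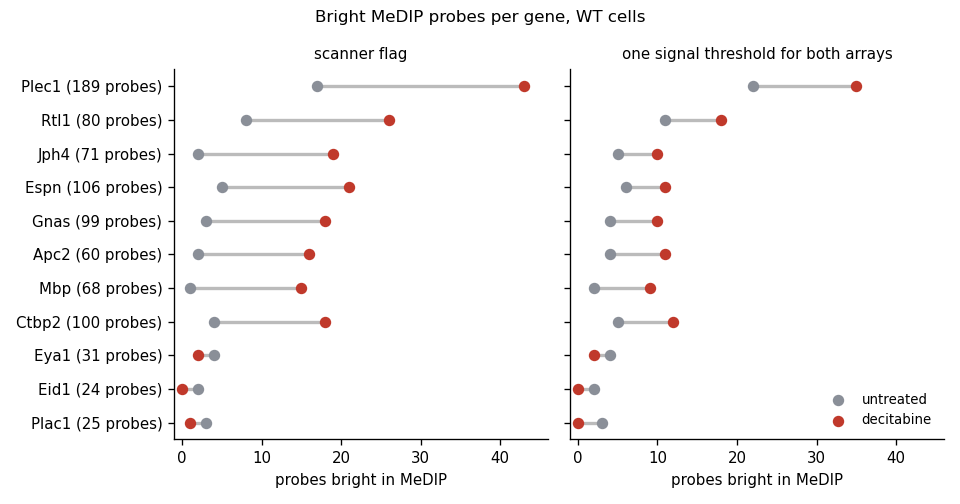
Bright MeDIP probes per gene (x axis, number of probes) on the untreated (grey) and decitabine (red) WT arrays, for the 8 genes with the largest gain and 3 of the 17 that lost 2 probes; left, by the scanner's mark, right, by 1 signal threshold for both arrays. Plec1 goes from 17 to 43 by the mark and from 22 to 35 by the common threshold, and Eya1, Eid1 and Plac1 keep fewer bright probes with decitabine in both panels.

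With the common processed threshold each of the 8 still had more probes above it with decitabine, such as 11 and 18 in Rtl1 and 4 and 11 in Apc2. The largest losses were of 2 probes, in 17 genes, of which the 3 with the largest absolute difference are named. Eya1, a transcriptional cofactor and phosphatase gene of organ development, went from 4 to 2 bright of 31 and from a ratio of 0.76 to 0.10, a difference of -0.66 ± 0.82. Eid1, which encodes an inhibitor of differentiation, went from 2 to 0 and Plac1, an X-linked placental gene, from 3 to 1, with differences of -0.42 and -0.40.

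Some of the newly bright probes lay next to each other. A run was counted where at least 4 neighbouring kept probes, with gaps of at most 500 bp, were all bright with decitabine and all dim without it, and this description was added after the values had been seen. There were 119 such runs with 517 probes under 118 gene names, and 0 runs of the opposite kind, whose longest stretch was 2 probes. Of the 517 run probes, 134 lay between annotated genes. The runs spanned 320 to 1273 bp, with a median of 597 bp. Their mean differences ran from 0.60 to 3.13, with a median of 1.76, and since every untreated probe in them was dim, the fold is a bound: it was above 1 in 116 of the 119 runs, with a median of at least 1.54-fold and a maximum of at least 3.68-fold. Input signal and centring enter this bound too. In the runs named for Wnt8b and Tbc1d21 it was 1.23 and 1.15. Yet 0 of 4 probes in each passed a MeDIP signal of 1400, the lowest bright one untreated, with decitabine. The runs were picked by the same signals, so differences above 0 and bounds above 1 follow largely from that choice. This holds for each single run below too. Within 500 bp of an annotated start of a protein-coding transcript lay 40 runs. Coding exons held 15.9% of the run probes, against 8.71% of all kept probes. The median number of CpG in the 500 bp around a run probe was 11, against 7 over all kept probes, and their median log2 input signal was 10.0, against 8.91. With one threshold for both arrays there were 20 such runs by the processed signal and 16 by the net signal, and 0 of the opposite kind by either.

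In Dhx38 the run of 9 probes (chr8:112085189-112086461) lay 3065 to 4290 bp into the gene, over introns and coding exons. Its mean log2 ratio was 0.45 untreated and 2.04 with decitabine, at least 1.55-fold higher, with probe differences from -0.37 to 3.12. With the common processed threshold 2 of its probes passed untreated and 5 with decitabine. The probe 116 bp into the gene was also bright with decitabine only, and the one 6 bp into it was dim on both arrays. In H2-DMa the run of 6 probes (chr17:34274250-34275083) came within 300 bp of an annotated H2-DMa transcript start. It went from -1.17 to 1.27, at least 1.70-fold higher. All 6 of its probes were higher with decitabine, by 1.29 to 3.47, and 4 passed the common threshold with decitabine and 0 untreated.

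In Zfp366 the run of 6 probes (chr13:99955406-99956401), in an intron 653 to 1595 bp after the start, went from -0.20 to 1.76, at least 1.5-fold higher. Upstream of the start, 1 probe of Zfp366 went the other way and was bright on the untreated array only. In Zbtb4 the run of 5 probes (chr11:69580286-69580944) began 901 bp after the gene's start and came within 269 bp of another annotated Zbtb4 transcript start. It went from -0.83 to 1.67, at least 1.73-fold higher. The 7 probes around the gene's start, up to 733 bp into the gene, where the surrounding 500 bp hold 21 to 45 CpG, were dim on both arrays. E2f4, a repressor E2F gene of the cell cycle, held a run of 6 probes (chr8:107827614-107828480) that went from -0.42 to 1.29, at least 1.53-fold higher.

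**Figure D3:**
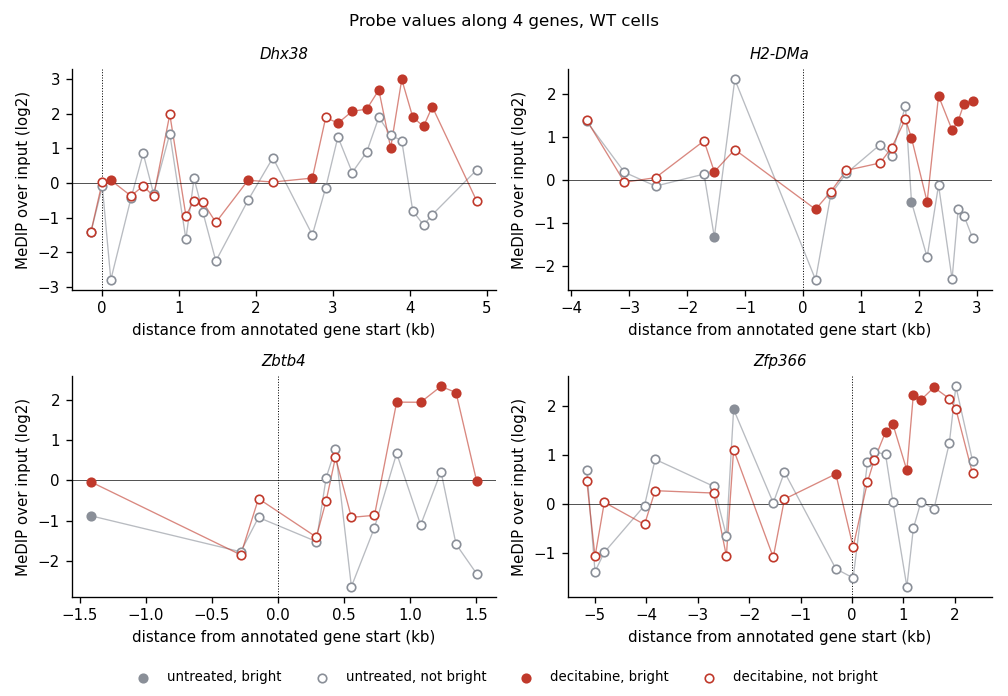
Probe values along 4 genes: x axis, distance from the annotated gene start in kb in the direction of transcription; y axis, log2 MeDIP-over-input ratio; grey, untreated; red, decitabine; filled points are bright, open points are not. Each gene has a run of 5 to 9 neighbouring filled red points whose untreated values are open, beside single filled points elsewhere, and the 7 probes around the start of Zbtb4 are open in both colours.

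Further runs of 5 probes carried the names of genes of varied roles. Hoxa5 of the HoxA cluster (chr6:52152804-52153734) went from -0.70 to 1.49, and the connexin gene Gjb5 from -0.59 to 1.89. The testis protease gene Prss21 went from -0.97 to 1.26, and Grin2d, which encodes a subunit of the NMDA receptor, from -1.39 to 0.80. The stress response gene Ddit4l went from -0.67 to 1.47. The run named for Ttll12, a tubulin ligase family gene, lay between annotated genes. It went from -0.59 to 1.57 and had the largest bound of these, at least 3.22-fold. In the KO arrays 506 of the 517 run probes could be read, and 93 of them were bright untreated and 410 with decitabine. In Grin2d none of 5 was bright in either KO array, and in Ttll12 all 5 were bright in both.

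The share of bright probes differed with input signal and, at like input, with CpG number. In the fifth of probes with the lowest untreated input, 0.43% were bright untreated and 0.67% with decitabine, and in the fifth with the highest input 13.2% and 45.7%. Over all probes, those with 0 to 4 CpG in the surrounding 500 bp went from 2.79% to 7.08% bright, and those with 30 or more, as in CpG islands, from 3.89% to 16.5%. Within the middle tertile of untreated input signal (log2 from 8.42 to 9.48) the order was another one. There, probes with 10 to 19 CpG went from 1.44% to 7.21%, those with 5 to 9 from 1.60% to 5.37%, those with 0 to 4 from 0.94% to 1.80%, and those with 30 or more from 0.28% to 0.57%. In the KO arrays, within the middle tertile of their own input, the share for 10 to 19 CpG was 1.60% untreated and 11.8% with decitabine. That for 5 to 9 CpG was 1.17% and also 11.8%, so these classes were level there with decitabine. The other KO classes stayed lower with decitabine, at 3.82% for 0 to 4 CpG, 2.45% for 20 to 29 and 1.51% for 30 or more.

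**Figure D4:**
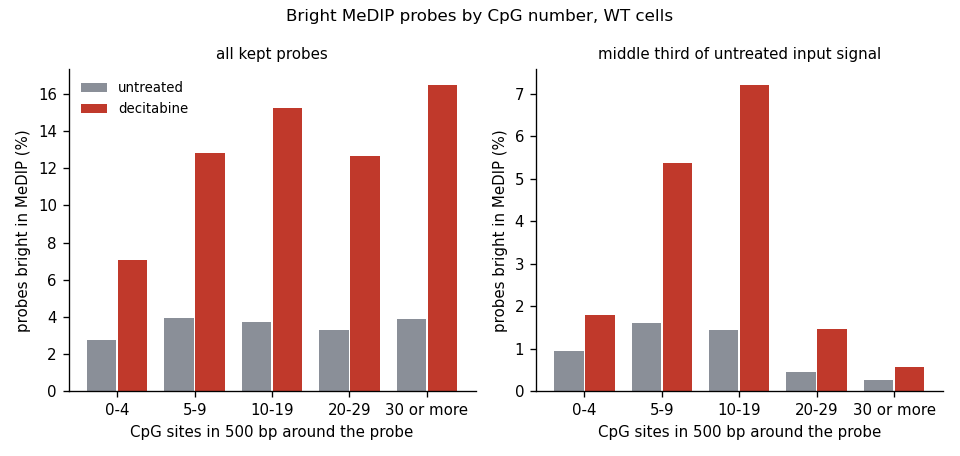
Share of kept probes bright in MeDIP (y axis, percent) by the number of CpG sites in the 500 bp around the probe (x axis), on the untreated (grey) and decitabine (red) WT arrays, for all kept probes (left) and for the middle tertile of untreated input signal (right). In the right panel the largest shares with decitabine are at 10 to 19 CpG (7.21%) and at 5 to 9 CpG (5.37%).

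With 1 threshold for both arrays in the middle tertile of input, the class of 10 to 19 CpG went from 2.36% to 3.21% by the processed signal and from 0.18% to 1.45% by the net signal. By the processed signal it was the only one of the 5 classes with a larger share on the decitabine array: 5 to 9 CpG went from 2.71% to 2.09% and 30 or more from 0.47% to 0.24%. By the net signal all 5 classes had a larger share with decitabine. By position the shares lay closer together. Within 500 bp of a transcript start 3.42% of probes were bright untreated and 13.6% with decitabine, and in the class farthest from a start 3.47% and 12.2%. In coding exons the shares were 3.13% and 13.7%, in introns 3.62% and 12.2% and between genes 3.43% and 10.8%. On the X chromosome they were 2.97% and 10.1%.

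Gene lists by role were read next, each by its median and counts; the genes named from a list are the 3 highest and the lowest of its members with a probe bright on both arrays, with any member past 2-fold. Over all genes the median was 0.09, and 0.489% rose. Of 36 lists, 19 stayed on their side of the median gene under 8 other settings that can move a list against it. The other 17 crossed it under 1 to 4 of them: the methyl-CpG binding, demethylation, decitabine uptake, HoxB to HoxD, homeodomain, myeloid, T lineage, erythroid, interferon, Wnt, ribosomal, housekeeping, histone, protocadherin, P450 and H2 lists and the markers outside blood. Over only the probes bright on both arrays, 26 lists kept 1 to 14 genes each, and 7 of the 14 among the 19 crossed: the methyltransferase, stem, imprinted, germline, apoptosis, oxidative phosphorylation and Ly6 lists.

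Genes of the methylation machinery gave mostly small differences. Of 11 DNA methyltransferase and cofactor genes, all measured, 6 lay above the median gene, and none passed 2-fold. Their probes went from 4.15% to 15.6% bright (12 and 45 of 289), against 3.49% to 11.9% over all kept probes. Dnmt3l, the catalytically inactive partner of the de novo enzymes, went from a ratio of -0.93 to 0.03, a difference of 0.97 ± 1.04 over 29 probes, and from 1 to 9 bright probes. Dnmt1, the maintenance enzyme, went from -0.25 to -0.02 and from 1 to 4 bright of 23, and Dnmt3a, a de novo enzyme, from -0.26 to -0.03 and from 2 to 8 of 33. Dnmt3b, the other de novo enzyme, was at 0.08 with 0 and 1 bright, and Uhrf1, which brings Dnmt1 to hemimethylated DNA, at 0.08 with 0 and 2 bright. Usp7, the deubiquitinase that acts on Dnmt1, was at 0.52, and Uhrf2 at -0.02.

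Among 9 measured genes of methyl-CpG binding proteins, Zbtb4 rose, as described above, and the list median was 0.13. Zbtb38 was at 0.21, Zbtb33 (Kaiso) at 0.13 and Mbd2 at -0.16. Of 11 demethylation genes 9 lay above the median gene and none passed 2-fold. Tdg, the glycosylase that removes oxidised methylcytosine, was highest at 0.67 with 2 and 5 bright of 14 probes, followed by Gadd45g at 0.32 and Idh2 at 0.22, and Smug1 was at -0.02. Genes of decitabine uptake and metabolism had a median of 0.14 over 19. The nucleotidase gene Nt5c was at 0.45, the nucleoside transporter genes Slc29a1 and Slc28a3 at 0.44 and 0.26, and the ribonucleotide reductase subunit gene Rrm2b at -0.11.

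Mll5 itself has no probe under that name on the array and has no value here. Among 13 measured genes of histone H3 lysine methylation at promoters, 11 lay above the median gene and the median was 0.24. Setd1a, a methyltransferase gene of this mark, was at 0.55 with 1 and 10 bright of 61 probes, the complex subunit gene Dpy30 at 0.34, the demethylase gene Jarid1b at 0.30 and the complex core gene Wdr5 at -0.22. Of 18 Polycomb genes 11 lay above the median gene and Ezh1 rose, by 1.39 over 6 probes, 2 of them bright with decitabine and 0 untreated. Phf19 was at 0.72, from 1 to 9 bright of 28, Phf1 at 0.60, Ring1 at 0.37 and the catalytic subunit gene Ezh2 at -0.10.

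Hoxa9 and Meis1, which together drive many myeloid leukaemias, were close to the median gene. Hoxa9 was at -0.51 untreated and -0.43 with decitabine over 35 probes, with 2 and 4 bright. Meis1 was at -0.05 and -0.08 over 45 probes, with 1 and 2 bright. The HoxA genes and their cofactors had a median of 0.25 over 19, with 12 above the median gene and all 19 gaining bright probes, where 74.7% of all genes did. Their probes went from 2.70% to 11.7% bright, close to the 11.9% of all kept probes with decitabine. Pbx4 was at 0.63 over 10 probes, Hoxa5 at 0.53 with 2 and 9 bright of 26, Pbx2 at 0.40 and Meis2 at -0.07. The HoxB, HoxC and HoxD genes had a median of 0.10 over 28, where Hoxd8 rose by 1.14 over 5 probes with a single bright one. Hoxb3 was at 0.31, Hoxb5 at 0.24, Hoxd13 at 0.17 and Hoxd12 at -0.27.

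Lists of blood cell genes had medians between 0.07 and 0.19, and the natural killer (NK) receptors -0.22. Stem and progenitor regulators had a median of 0.16 over 23, with the endothelial kinase gene Tie1 at 0.77, the haematopoietic factor genes Gata2 at 0.43 (2 and 14 bright of 60 probes) and Lyl1 at 0.37, and the receptor gene Flt3 at -0.09. Ly6a, which encodes the stem cell antigen Sca-1, rose by 1.08 over 5 probes with 1 bright with decitabine. Myeloid genes had a median of 0.16 over 27, with none past 2-fold: the Fc receptor gene Fcgr3 was at 0.34, Sfpi1, which encodes PU.1, at 0.33 with 2 and 8 bright of 42, the receptor gene Csf3r at 0.32 and the granule enzyme gene Mpo at -0.05.

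B lineage genes had a median of 0.19 over 14. The receptor gene Cd22 was at 0.49, the adaptor gene Blnk at 0.46, the lineage factor gene Pax5 at 0.43 with 1 and 9 bright of 52, and the recombinase gene Rag2 at -0.09. T lineage genes had a median of 0.15 over 22, with the coreceptor genes Cd4 at 0.54 (1 and 8 bright of 44) and Cd8a at 0.44, Cd5 at 0.40 and Cd6 at -0.08. Erythroid and megakaryocyte genes had a median of 0.07 over 16, with the factor gene Gata1 at 0.52, the anion exchanger gene Slc4a1 at 0.46, the platelet receptor gene Gp1ba at 0.45 and the transferrin receptor gene Tfrc at -0.19. NK receptor genes had a median of -0.22, with 3 of 18 above the median gene, 9 with no bright probe on either array and 0 gaining 3. Of all 17177 genes, 2634 had no bright probe on either array and 29.7% gained at least 3. The 215 probes of the NK genes went from 1.40% to 5.58% bright, where all kept probes went from 3.49% to 11.9%. Klrb1c was at 0.63 over 11 probes, and Klre1 and Klrc1 at -0.16 and -0.22.

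Many imprinted and germline genes carry methylation in normal cells, on one parental copy or in most somatic tissues. The 44 imprinted genes measured had a median of 0.15, 39 of them gained bright probes, where 74.7% of all genes did, and their probes went from 3.58% to 14.6% bright (48 and 195 of 1339), against 3.49% to 11.9% over all kept probes. Snrpn, a paternally expressed splicing factor gene, was at 0.60 with 1 and 6 bright of 25, Mest at 0.44 with 1 and 12 of 55, Commd1 at 0.38 and Ins2 at -0.24. The 38 germline genes had a median of 0.17, with none past 2-fold: the synaptonemal complex gene Sycp2 was at 0.99 over 4 probes, Tex11 at 0.75, the bromodomain gene Brdt at 0.63 and Sycp1 at -0.21. Genes outside blood had a median of 0.08 over 24, with the glial gene Gfap at 0.54, the cardiac genes Myh7 and Nppa at 0.48 and 0.37, and the insulin gene Ins1 at -0.31.

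Genes often silenced by methylation in tumours showed no 2-fold difference. Of 39 cell cycle inhibitors and tumour suppressors 25 lay above the median gene, and the median was 0.22. Egr1 was at 0.59, Tsc2 at 0.51 with 1 and 6 bright of 15, Klf4 at 0.49 and the repair gene Mgmt at -0.38. Wnt antagonists had a median of 0.11 over 17, with Dkkl1 and Wif1 at 0.33, Dkk3 at 0.21 and Dkk2 at -0.14. DNA repair genes had a median of 0.16 over 26, with the damage sensor gene Xpc at 0.57, the ligase gene Lig4 at 0.40 and the Fanconi gene Fanca at 0.39, and Mgmt again the lowest. Apoptosis genes had a median of 0.10 over 23, with the p53 target genes Bax at 0.60 (3 and 8 bright of 33) and Bbc3 at 0.55 (3 and 10 of 32), the caspase gene Casp9 at 0.44 and the death receptor gene Fas at -0.36. Interferon-induced genes had a median of 0.10 over 39, with Oas1b at 0.79, Oas3 at 0.52, Bst2 at 0.48 and Ifit2 at -0.17.

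Developmental regulators, whose CpG islands are held by Polycomb in most cells, lay near the median gene. The 40 homeodomain genes had a median of 0.04, with Irx3 at 0.35, Emx2 at 0.28, En1 at 0.26 and Pitx1 at -0.22. The 69 Fox, Sox and Tbx genes had a median of 0.14, with Foxo6 at 0.65, Tbx10 at 0.51, Sox8 at 0.49 and Tbx20 at -0.26. Housekeeping genes with CpG islands had a median of 0.11 over 32, with Gpi1 at 0.39 over 3 probes, Ywhaz at 0.38, Eef1a1 at 0.36 and Tfrc at -0.19. Ribosomal protein genes had a median of 0.14 over 89, led by Rpl10a at 0.72, Rpl32 at 0.56 and Rpl31 at 0.48, with Rpl39l at -0.26. Nuclear genes of oxidative phosphorylation had a median of 0.13 over 83, where Cox4i2 rose, Cox4nb was at 0.46, Ndufb8 at 0.40 and Atp5l at -0.35. Cox4nb is counted in this list, though its name marks a neighbour of a Cox4 gene and not a subunit. The 51 histone genes of the replication-dependent clusters had a median of 0.07, with 32 holding no bright probe on either array, against 2634 of all 17177 genes. Their 621 probes went from 0.81% to 5.15% bright, where all kept probes went from 3.49% to 11.9%. Among these genes Hist1h3g was at 0.69, Hist1h4j at 0.45, Hist1h3e at 0.37 and Hist1h3c at 0.04.

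Large tandem families differed among themselves. The 811 olfactory receptor genes measured of 866 had a median of -0.26 and 87 lay above the median gene; 1 rose and 3 fell. The vomeronasal receptor genes, which detect pheromones, had a median of -0.33 over 103, with 11 above the median gene and none past 2-fold. Their bright probes went from 239 to 598 of 11498 in the olfactory and from 19 to 50 of 1197 in the vomeronasal genes, that is from 2.08% to 5.20% and from 1.59% to 4.18%, where all kept probes went from 3.49% to 11.9%. Olfr282 rose by 1.29 over 12 probes, Olfr295 was at 0.75 over 3, Olfr284 at 0.44 with 2 and 7 bright of 32, and Olfr1367 at -0.76. Among the vomeronasal genes V1rh20 was at -0.04, V1re12 at -0.13, V1rg1 at -0.23 and V1re2 at -0.65. Both lists, and the NK receptors, lay below the median gene under each of the 8 settings, with sizes that moved. By loess the olfactory list went from -0.35 to -0.10 relative to the median gene, with 275 of 811 above it, and the vomeronasal list from -0.42 to -0.18, with 30 of 103 above it. The part of input signal in this was not tested.

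Clustered protocadherin genes, which give neurons their surface identity, had a median of -0.02 over 55, with Pcdhga11 at 0.81, Pcdhgc5 at 0.78, Pcdhga4 at 0.63 and Pcdhb14 at -0.28. Keratin and keratin-associated genes had a median of -0.01 over 69, with Krt10 at 0.71 (1 and 7 bright of 24), Krt17 at 0.66, Krt18 at 0.52 and Krtap5-4 at -0.78. The 247 Zfp zinc finger genes had a median of 0.12, with 2 past 2-fold: Zfp827, named above, and Zfp800, higher by 1.22 over 4 probes. Zfp26 was at 0.81 over 3 probes, Zfp82 at 0.73 and Zfp300 at -0.37. Cytochrome P450 genes had a median of 0.05 over 70, where Cyp2a5 and Cyp2b13 rose by 1.27 and 1.09 over 5 and 3 probes. Cyp27a1 and Cyp39a1 were at 0.30, Cyp2s1 at 0.27 and Cyp4f15 at -0.35.

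The Ly6 family had the highest list median, 0.37 over 13, with 9 above the median gene. In KO the median of this list was 0.03, where the median gene was at 0.09. Ly6g6c and Ly6a rose, as given above, Ly6g6d was at 0.67 and Ly6g5b at 0.60, both neighbours of Ly6g6c, and Ly6i was at -0.39. The list lay above the median gene by 0.11 to 0.33 under the 8 settings, and its single gene left over bright probes only lay below it. The 32 H2 genes measured had a median of 0.12, with H2-T23 past 2-fold. H2-DMa was at 0.95 over 19 probes with 2 and 9 bright, the class II chain genes H2-Ab1 and H2-Aa at 0.29 and 0.25, and the class I gene H2-K1 at -0.34.

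**Figure D5:**
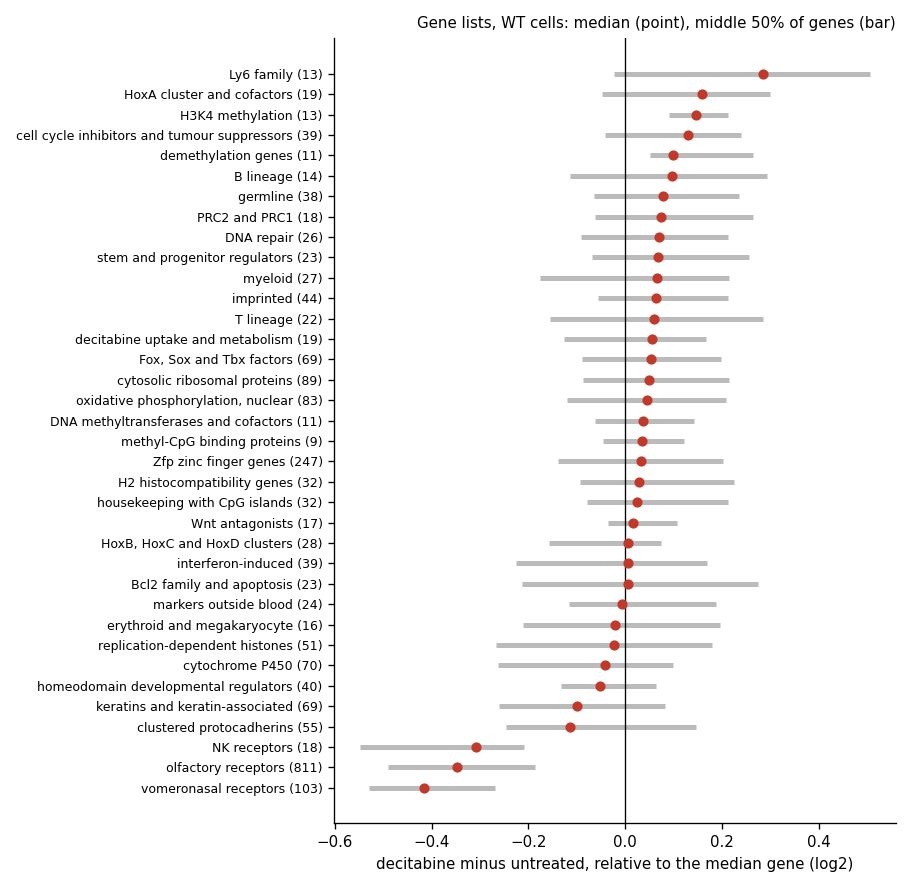
Each row is a gene list with its number of measured genes; the x axis is decitabine minus untreated (log2) relative to the median gene, the point is the median of the list and the bar its middle 50% of genes. NK, olfactory and vomeronasal receptor genes lie lowest, at -0.31, -0.35 and -0.42, and the Ly6 family highest at 0.29.

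MicroRNA loci carry probe names with an offset after the locus and so none had 3 probes under 1 name. Joined by locus, which was added after the values had been seen, 150 loci could be read, of which 73 gained (48.7%, against 74.7% of genes) and 3 lost bright probes. Their probes went from 3.67% to 10.8% bright, where all kept probes went from 3.49% to 11.9%. The locus of mmu-mir-34a, a p53-regulated microRNA, had the largest gain, from 2 to 9 of 23 probes with a mean difference of 0.87 ± 1.17. Those of mmu-mir-129-1 and mmu-mir-370 went from 0 to 6 of 32 and from 1 to 7 of 40.

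The KO arrays, which share no array with the WT pair, gave like counts and a like median gene, side by side and without a test. There 87 of 17054 genes rose (0.51%) and 6 fell (0.0352%), and the median gene was at 0.09 too. Of the genes that rose, 22 were the same, 26.2% of those in WT and 25.3% of those in KO. Of the 80 WT genes measured in both, 79 were above 0 in KO, with a median of 0.71. The exception was Ly6a, at -0.23 in KO (1.08 in WT). Over 17044 genes the WT and KO differences had a correlation of 0.59, where all 4 hybridisations share the probes and their base composition. Of probes newly bright with decitabine, 23197 were the same, 65.7% of the 35286 in WT and 56.8% of the 40864 in KO, over 332300 probes kept in both. In KO, Ly6g6c was at 0.34 (1.54 in WT), Tmem181 at 0.42 (1.42) and Sco2 at 0.11 (1.06). Efr3b was at 1.02 (1.41 in WT), Zbtb4 at 0.85 (1.16), Dnmt3l at 0.71 (0.97) and Cul7 at 0.96 (1.01).

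A DNA array gives no expression, so the labelled cell type could not be checked against markers. Input signal was somewhat lower on the decitabine array, with a net median of 137 units untreated and 112 with decitabine and a 99th percentile of 1520 and 1148. Of 563117 non-control spots, 83.9% had input well above background untreated and 80.4% with decitabine, and 2.73% and 9.34% had MeDIP well above background. Before normalisation the median net MeDIP signal was 405 and 409 units, and its 99th percentile 596 and 925. For 64.1% and 44.6% of kept spots the scanner had replaced the MeDIP signal by a surrogate at the noise level, so gene means mix measured and surrogate values.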

How the data were processed

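Processed Cy3 (MeDIP) and Cy5 (input) intensities, deposited by the authors in their scanner files, had been background-subtracted, detrended and dye-normalised in Feature Extraction 10.5 by Agilent, per the file headers and the submitters' processing notes. The deposited log10 ratio and the mean and background intensities entered only alternatives. Flags in the deposited files marked spots well above background. The authors' value table was not used. Here the log2 ratio of Cy3 over Cy5 was centred on the median of the kept probes of each array, spots of a probe and then probes of a gene were averaged, and untreated was subtracted from decitabine. All 402394 kept probes with a position matched mm9 at their coordinates. Of 37040 gene names, 19515 carry an offset and have under 3 probes each, and 734 unmapped probes were left out. The script was tested on simulated data. Members and gene lists were chosen with earlier results of these data known. Genes were named by rank: 15 highest and 10 lowest with 3 probes bright on both arrays, 8 largest gains and 3 largest losses of bright probes, 3 highest and 1 lowest per list, and 7 genes of interest; others were chosen after their values were seen. Alternatives used limma 3.58.1 in R 4.3.3 (normexp with offset 50, loess), other centrings, filters and thresholds. The number of arrays, 1 a group, limits the precision.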

Additional observations from a re-analysis of the deposited data

Results flagged for a closer look

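Some named genes had WT and KO differences of opposite sign, decitabine minus untreated on the log2 scale, with 1 array a group in each. This was so for 29 of 194 genes named by rank or interest and measured in KO, and for 6 of 36 gene lists. None of these differences was tested, and the largest gap among them was 0.99. Ly6a, which was named for passing 2-fold and is not counted among them, was at 1.08 in WT and -0.23 in KO. Genes below 0 in WT and above 0 in KO had these KO values: V1re12 was at 0.86, Wdr5 at 0.53, Mbd2 at 0.40, Fdft1 at 0.27, Ncoa1 at 0.25, Uhrf2 at 0.24, Flt3 at 0.20, Bhlhb3 at 0.17, Plod2 at 0.14, Eid1, Ifit2 and H2-K1 at 0.13, Dkk2 at 0.12, Ghrhr at 0.11, Plac1 at 0.10, Pcdhb14 at 0.079, Srpk2 at 0.038 and Cd6 at 0.023. Genes above 0 in WT and below 0 in KO had these KO values: Bst2 was at -0.36, Cd8a at -0.23, Hist1h3c at -0.20, Hist1h3g at -0.19, Wif1 at -0.14, Dnmt3b at -0.079, H2-Ab1 at -0.074, Emx2 at -0.062, Mbp at -0.060, Ly6g5b at -0.049 and Fcgr3 at -0.034. The list medians that were above 0 in WT and below 0 in KO were those of replication-dependent histones (-0.13), interferon-induced genes (-0.080), markers outside blood (-0.038), demethylation genes (-0.035), myeloid genes (-0.0043) and cytochrome P450 genes (-0.0021).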

How the results depend on the processing

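No paired analysis was possible because each group holds 1 array. The counts of 84 genes higher and 5 lower, and the median gene at 0.09, moved with the setting. The count of genes higher was 127 when centred on housekeeping genes, 15 when centred on bright probes, 14 by loess, 14 by normexp, 160 of 876 over bright probes only and 52 with 80% of probes moving the same way. The count of genes lower was 2, 73, 20, 0 and 0 under the first 5 of these, 2 with the deposited log ratio, 8 with the median over probes, 12 with an input filter on all 4 arrays, 3 with at least 5 probes a gene and 1 with the MeDIP channel alone. The median gene was at -0.24 centred on bright probes, -0.063 by loess, -0.059 with the median over probes, and 0.55 over bright probes only. The 5096 genes gaining at least 3 bright probes became 11148 under the looser significance flag, 1459 with a single processed threshold and 1619 with a single net threshold, the last 2 chosen after seeing the data. The cause was not tested. Of the values of named genes, 1895 were counted as unchanged, 102 no longer passed 2-fold and 12 moved. For a gene past 2-fold, unchanged meant still past it in the same direction. For any other gene it meant within the SD over its probes, so its sign could turn. Of list medians relative to the median gene, 372 stayed within the SD over the genes of the list and 14 moved. These counts include both centrings, which cannot move them. MeDIP signal was not well above background for most probes, which limits every gene mean.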
